A study of Mus musculus with 232 samples.

Results

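Cajal-Retzius cells were examined in a single-cell RNA survey of the developing and adult mouse dentate gyrus. The cells were those that the authors' deposited annotation assigns to the cluster named Cajal-Retzius at any age, 535 of 24185 cells. They comprised 114 cells at embryonic day E16.5, 136 at P0 (73 and 63 in 2 libraries), 151 at P5 (78 and 73 in 2 libraries), 22 at P18, 48 at P19, 26 at P23, 3 at P120 and 35 at P132 (8 and 27 in 2 libraries). The E16.5, P0 and P5 samples came from CD-1 mice of unknown sex, the P18 and P23 samples from male CD-1 mice, and the P19 sample from female C57Bl/6 mice. The adult samples were hGFAP-GFP mice, whose GFP is driven by the human GFAP promoter, and pooled 2 males with 1 female at P120 and 3 males with 1 female at P132. The adult cells had been sorted for GFP, so a neuron of those ages had passed a gate set on a glial promoter. Tissue was dissected from sections of the dentate gyrus, dissociated with papain and captured with the 10X Chromium version 2 chemistry, which counts unique molecular identifiers (UMIs), at most 1 per captured molecule. A microglial cluster whose deposited name contains the string Cajal-Retzius by what reads as a text replacement (428 cells) was not included.

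Cajal-Retzius cells are early-born, mostly transient glutamatergic neurons of the marginal zone, and in the hippocampus they line the hippocampal fissure and the outer molecular layer of the dentate gyrus. They secrete reelin, a large extracellular glycoprotein that binds the receptors Vldlr and Lrp8 (ApoER2) on neighbouring neurons and radial glia, where the adaptor Dab1 passes the signal on. Many of them die during early postnatal life, while a part of those in the hippocampus persists. The transcription factor p73 (Trp73) and the LIM-homeodomain factors Lhx1 and Lhx5 mark the lineage, and Ndnf encodes a secreted neuronal factor.

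The Cajal-Retzius cells held 33674 to 910363 UMIs per age from E16.5 to P23, 8113 at P120 and 56991 at P132. Their median was 5472, 5951.5 and 5328 UMIs per cell at E16.5, P0 and P5, and 1433, 2024.5 and 3050 at P18, P19 and P23. Levels are given in CPM, a gene's UMIs per 1000000 UMIs of the summed cells; at P18 1 UMI was worth 29.7 CPM. Of 23725 barcodes in the series 456 occurred in 2 or more libraries; none was shared between Cajal-Retzius cells, and 21 Cajal-Retzius barcodes also occurred in a cell of another cluster. Xist, the long RNA of the inactive X chromosome, had a UMI in 106 of 114 Cajal-Retzius cells at E16.5, 21 of 136 at P0, 0 of 151 at P5, 0 of 22 at P18, 46 of 48 at P19 and 0 of 26 at P23. Sex therefore moved with age in these cells, and so did strain at P19; the part of either in the age differences was not tested.

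The levels of 5 markers were set beside the label. Reln was at 1877, 2938 and 3307 CPM at E16.5, P0 and P5, at 1396, 1882 and 2518 CPM at P18, P19 and P23, and at 1176 CPM at P132. The highest other neuronal cluster was Immature-GABA at E16.5, P0 and P5 and GABA at P18, P19, P23 and P132. Its Reln level was between 109 and 871 CPM. The Cajal-Retzius level was 17.2, 20.2 and 18.2 times that of this cluster at E16.5, P0 and P5, and 2.90, 2.16, 4.38 and 3.29 times at P18, P19, P23 and P132. Cajal-Retzius cells thus had the highest Reln level of the neuronal clusters at all 7 ages, with a wider margin at the 3 youngest. The GABA cluster was not among the clusters compared at those 3 ages, so the younger and older margins are against different clusters. At P23 Immature-GABA had 311 CPM of Reln and GABA 575 CPM. At least 1 Reln UMI was present in 98.2, 96.3 and 100% of Cajal-Retzius cells at E16.5, P0 and P5 and in 81.8, 93.8 and 100% at P18, P19 and P23. In the other neuronal cells of those ages the share was 4.77, 7.60, 9.95, 1.53, 1.92 and 2.50%.

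The transcription factors separated the cluster more sharply than reelin did. Trp73 was at 123 to 296 CPM at the 7 ages and at most 4.54 CPM in any other neuronal cluster. Ependymal cells, which are not neurons, reached 40.9 CPM. Lhx1 was at 140 to 436 CPM against at most 4.05 CPM in other neuronal clusters, and Lhx5 at 98.1 to 387 CPM against at most 8.90 CPM. Ndnf was at 276 to 2019 CPM and reached 282 CPM in the GABA cluster. At least 3 of the 5 markers were detected in 87.7, 86.0 and 99.3% of Cajal-Retzius cells at E16.5, P0 and P5, 59.1, 68.8 and 96.2% at P18, P19 and P23 and 40.0% at P132, and in no more than 0.175% of other neuronal cells at any age. In all, 2 of the 535 cells had a UMI of none of the 5. A UMI of Gad1, Gad2 or Slc32a1, which mark GABAergic neurons, was found in 0 to 10 cells of an age. The markers went with the label at every age. The clusters were drawn on these same cells, so this describes the label and is no independent check of it. On the GRCm38.p6 assembly (RefSeq) Reln lies at chr5:21884454-22344705, Trp73 at chr4:154056249-154139875, Lhx1 at chr11:84517975-84525534, Lhx5 at chr5:120431886-120441457 and Ndnf at chr6:65671611-65712323.

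**Figure D1:**
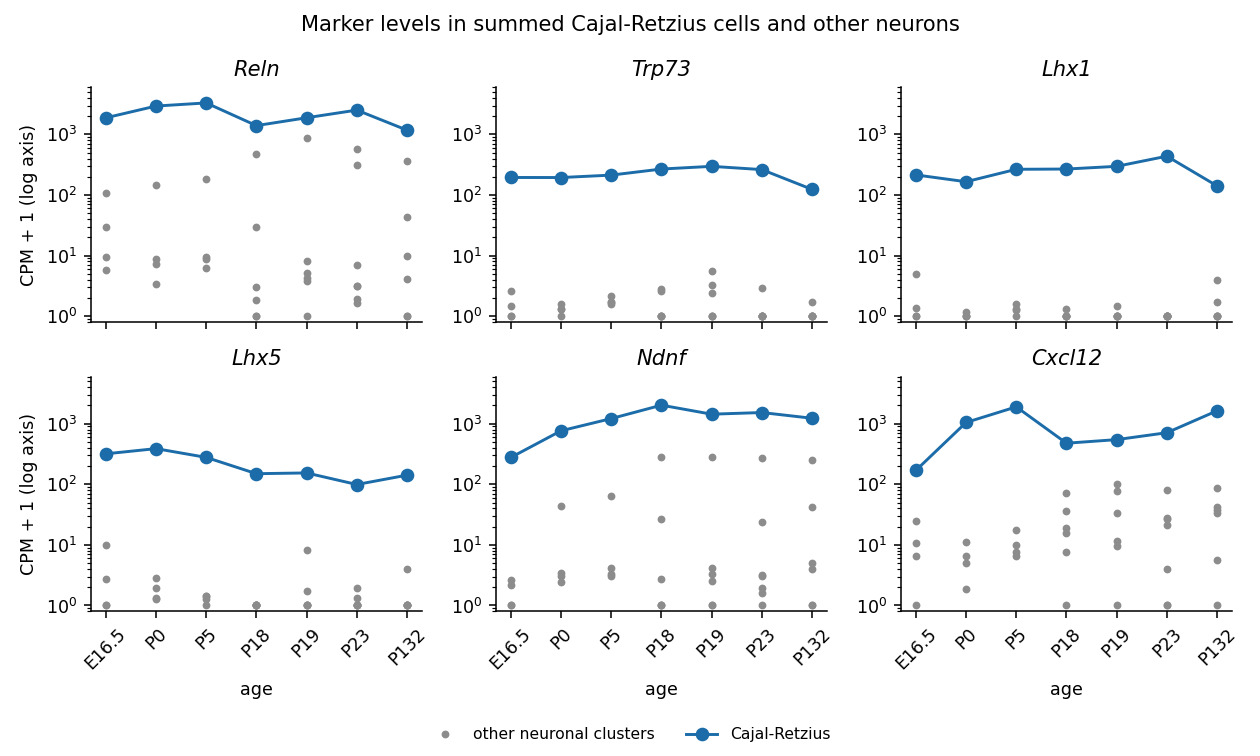
Level (CPM + 1, logarithmic axis) of Reln, Trp73, Lhx1, Lhx5, Ndnf and Cxcl12 at the 7 ages other than P120. Blue points are the summed Cajal-Retzius cells and grey points the other neuronal clusters of the same age; Trp73, Lhx1 and Lhx5 stayed at or under 8.90 CPM in the grey points, while GABAergic clusters reached 871 CPM of Reln.

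Genes that stood highest over the other neuronal clusters are given as a description, since the clusters were drawn on these same cells. Of 1709 genes with a mean of at least 100 CPM in the Cajal-Retzius sums, 92 were above every other neuronal cluster at all 7 ages. Of these, 16 were above by at least 4 times when 5 CPM was added to each level. The ranking was led by 2 long non-coding RNAs that lie beside the LIM-homeodomain genes. Lhx1os, at chr11:84525660-84535831 next to Lhx1, was at 369 to 1069 CPM in Cajal-Retzius cells and at most 6.39 CPM elsewhere. Gm27199, at chr5:120419656-120431767 next to Lhx5, was at 120 to 443 CPM against at most 5.95 CPM. Whether the counting used strand is not given in the sources used here, so reads of these RNAs and of their neighbours may not be fully separated.

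Trp73, Lhx1, Lhx5 and Ndnf were among the other 18 leading genes. Ebf3, a transcription factor, was at 29.7 to 153 CPM against at most 0.455 CPM in the other neuronal clusters. Nhlh2, a basic helix-loop-helix factor, was at 478 to 1568 CPM against at most 183 CPM. Of the secreted factors among the 20, the chemokine Cxcl12 was at 168 to 1895 CPM against at most 102 CPM, the angiopoietin Angpt1 at 29.2 to 301 CPM against at most 14.9 CPM, and Gdf5, a ligand of the bone morphogenetic protein family, at 17.5 to 190 CPM against at most 1.46 CPM.

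Among membrane proteins, Cacna2d2, an auxiliary calcium channel subunit, was at 332 to 872 CPM against at most 51.3 CPM. Tmem163 was at 140 to 305 CPM against at most 19.5 CPM. Ramp1, a partner of the calcitonin receptor-like receptor, ranged from 58.4 CPM at E16.5 to 2017 CPM at P23, against at most 329 CPM elsewhere. Diablo, which encodes a mitochondrial protein that binds inhibitors of apoptosis, was at 440 to 991 CPM against at most 95.3 CPM. The other genes were Syndig1l, 5330417C22Rik, Ankrd35, Fndc3b and Dach1.

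Low genes were taken from a smaller set under another filter, so their number cannot be set against that of the high genes. Of 458 genes with at least 100 CPM in every other neuronal cluster, 2 were below all of those clusters at all 7 ages. These were Tcf4, a helix-loop-helix factor, at 386 to 679 CPM where the lowest other cluster had 637 to 1281 CPM, and Celf2, an RNA-binding protein, at 29.7 to 394 CPM. The next by rank were Acp1, Cfl1 and 6 mitochondrially encoded transcripts (mt-Co2, mt-Nd3, mt-Cytb, mt-Co3, mt-Nd4 and mt-Nd1). Each of these was above the lowest other neuronal cluster at some age, so they were not low throughout. At E16.5, for example, mt-Nd1 was at 5760 CPM in Cajal-Retzius cells and 4932 CPM in Neuroblast.

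Genes of glutamate release were detected at every age from E16.5 to P23. Slc17a6, the vesicular glutamate transporter VGLUT2, was at 88.9, 153, 213, 148, 268 and 360 CPM from E16.5 to P23. Slc17a7, which encodes VGLUT1, was at 2.65, 2.39 and 15.4 CPM at the 3 youngest ages. On the receiving side of the reelin pathway, Vldlr stayed at or under 54.5 CPM from E16.5 to P23, and Lrp8 was at 62.4, 50.1, 61.5, 89.1, 9.55 and 142 CPM. Dab1 was at 35.8, 14.3 and 53.8 CPM at E16.5, P0 and P5, listed at 0 at P18 and P19, and at 43.6 CPM at P23. The chloride transporters Slc12a2 and Slc12a5, whose balance sets the direction of the response to GABA, stayed at or under 19.1 and 11 CPM from E16.5 to P23. These levels are near the floor at the juvenile ages. At P18 1 UMI was worth 29.7 CPM, so neither gene had a UMI there and their balance could not be followed.

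The cluster formed a smaller share of the cells at the older ages. It made up 4.99, 2.85 and 3.40% of all cells at E16.5, P0 and P5, with exact (Clopper-Pearson) 95% binomial intervals of 4.13 to 5.96, 2.39 to 3.36 and 2.89 to 3.98%. At P18, P19 and P23 it made up 0.811, 2.31 and 0.963%, with intervals of 0.509 to 1.23, 1.71 to 3.05 and 0.630 to 1.41%. The 3 older shares were all below the 3 younger ones. These intervals cover counting error only; the part of dissection and dissociation in the shares was not tested.

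Over ages, the share was 3.75% ± 1.11 (SD, n = 3) at E16.5 to P5 and 1.36% ± 0.823 (SD, n = 3) at P18 to P23, a difference of -2.39 percentage points (exact permutation test, two-sided, p = 0.1, Benjamini-Hochberg adjusted over 2 shares 0.1). That is the smallest p that 3 ages against 3 can give. Of neuronal cells alone the share was 6.22, 3.44 and 5.16% at the younger ages and 1.01, 3.30 and 1.60% at the older ones, where P19 was close to P0. The difference of the means was -2.97 percentage points (4.94% ± 1.40 against 1.97% ± 1.19, SD, n = 3 each, exact permutation p = 0.1). In the GFP-sorted adult samples the share of all cells was 0.220% at P120 (0.0454 to 0.642%) and 0.914% at P132 (0.637 to 1.27%). The 2 libraries of P132 held 0.420 and 1.40%.

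**Figure D2:**
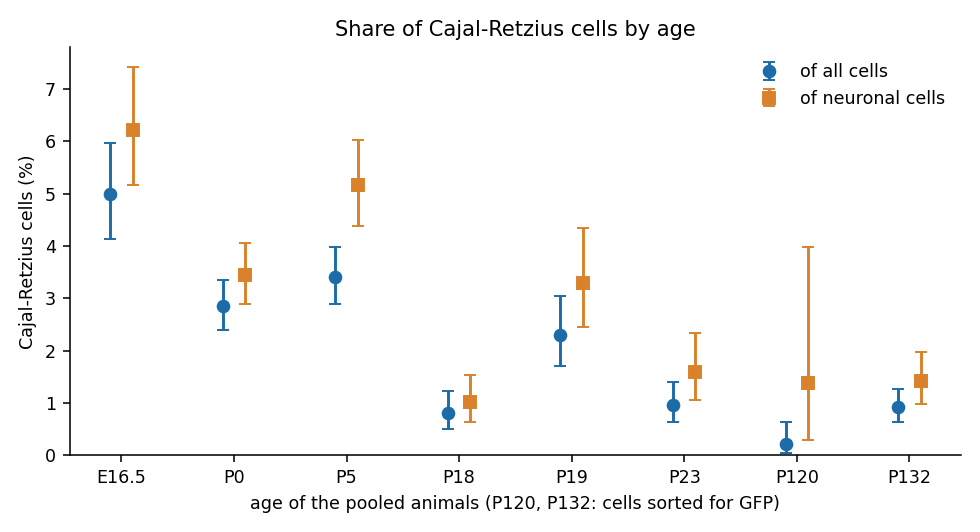
Cajal-Retzius cells as a percent of all cells and of neuronal cells at each age, with exact 95% binomial intervals that cover counting error only. The shares at E16.5, P0 and P5 (2.85 to 4.99% of all cells) lie above those at P18, P19 and P23 (0.811 to 2.31%); the P120 and P132 cells were sorted for GFP.

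Between E16.5 and P0 Cajal-Retzius cells gained transcripts of the secreted factors Cxcl12, Ndnf and Reln and of the presynaptic machinery, and lost transcripts of newly generated neurons. Of 7154 genes tested, 389 rose (5.44%) and 363 fell (5.07%), 10.5% in all, by edgeR's quasi-likelihood test at an adjusted p under 0.05; the median log2 fold change over all genes tested was 0.01. DESeq2 called 141 genes, and edgeR 494 and 456 without library 1 or 2 of P0. E16.5 is 1 library, which the fit assumes to vary like the P0 and P5 libraries. Nothing in the labels says that the 2 libraries of an age came from separate animals, so these p-values rest on the spread between libraries, which may be technical. In the fits of libraries that spread was estimated mostly over genes together, so a p-value does not measure the spread of its own gene. Hba-a1 was at 2735 and 60.4 CPM in the P5 libraries and still had an edgeR adjusted p = 1.93e-219 from P0 to P5.

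Cxcl12 was at 168 CPM in the E16.5 library and at 1020 and 1072 CPM in the P0 libraries, a log2 fold change of 2.59 ± 0.14 (SE; edgeR adjusted p = 1.90e-70). Ndnf was at 276 CPM and then at 669 and 854 CPM (1.42 ± 0.15, edgeR adjusted p = 1.80e-19), and Reln at 1877 CPM and then at 2896 and 2980 CPM (0.60 ± 0.09, edgeR adjusted p = 2.09e-10). All 3 were higher in both P0 libraries than at E16.5. The lineage transcription factors were not called: Trp73 was at 194 CPM and then at 192 and 194 CPM, Lhx1 at 214 and then 156 and 173 CPM, and Lhx5 at 317 and then 339 and 433 CPM. Penk, the proenkephalin precursor, was at 9.29 CPM and then at 74.6 and 71.0 CPM (2.89 ± 0.45). Calb2, the calcium-binding protein calretinin used to label these cells, was at 271 CPM and then at 666 and 663 CPM (1.25 ± 0.16). Among neuronal clusters the Calb2 level was highest in Cajal-Retzius cells at P0 and P5 alone. Immature-GC had 368 CPM at E16.5. Neuroblast cells had 997, 999, 875 and 818 CPM at P18, P19, P23 and P132, against 713, 440, 556 and 421 CPM. Each of the 5 called genes of this group stayed called whichever of the other libraries was left out.

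The named rise that kept the smallest p was that of Snhg11, a long non-coding RNA of neurons, from 155 CPM to 1932 and 1860 CPM (3.56 ± 0.13, edgeR adjusted p = 1.91e-159). Angpt1 rose from 29.2 CPM to 229 and 237 CPM (2.94 ± 0.28). Also among the 12 named rises were Npnt, an extracellular matrix protein, Sncb, the synaptic protein beta-synuclein, the potassium channel-interacting protein Kcnip4, the vesicle fusion factor Napb, Rassf4, Rec114 and the immediate-early gene Junb, at log2 fold changes of 2.63 to 3.23. The 2 remaining ones, Ddx3y at 4.30 and Eif2s3y at 3.72, are Y-linked and moved with the sex of the animals given above, as did Xist (-2.78).

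Of 16 presynaptic genes tested, 7 rose and none fell (median log2 fold change 0.84). Syn2, a synaptic vesicle phosphoprotein, was at 39.8 CPM and then at 149 and 147 CPM (1.84), and the calcium sensor Syt1 at 76.9 CPM and then at 204 and 194 CPM (1.33). Among the others were Cplx1 (1.58), Snap25 (0.94), Vamp2 (0.93) and Sv2a (0.75). Without library 2 of P0 the calls of Cplx1 and Sv2a ended (edgeR adjusted p = 0.0843 and 0.185), as did that of Sv2a without library 1 of P0 (0.119). Of 15 immature-neuron genes, 2 rose and 7 fell (median -0.28). The transcription factor Sox11 fell from 1106 CPM to 221 and 282 CPM (-2.18 ± 0.15), and Igfbpl1, a gene of newborn neurons, from 1333 CPM to 221 and 211 CPM (-2.67 ± 0.16). Nnat, neuronatin, fell from 3841 CPM to 1479 and 1333 CPM (-1.49).

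Of 20 transcription factors of the lineage and the forebrain, 6 fell and none rose (median -0.02), among them Nhlh1 (-2.06), Ebf1 (-1.73), Emx1 (-1.68), Lhx9 (-1.25) and Nr2f1 (-0.86). Of 15 chemokine and guidance genes, 2 rose (Cxcl12, and the Slit receptor Robo2 at 0.60) and 4 fell, namely Sema3c (-2.14), Sema6a (-0.73) and the semaphorin co-receptors Nrp1 (-1.31) and Nrp2 (-1.57). Of these, Nhlh1, Ebf1, Emx1, Lhx9, Nr2f1, Sema6a and Robo2 were not called without library 1 of P0 (edgeR adjusted p = 0.0508 to 0.104), nor Ebf1, Lhx9, Sema6a and Robo2 without library 2 of P0 (0.0506 to 0.193). In the reelin pathway list 1 of 17 rose, Reln itself, and 1 fell, Dab1 at -1.35, whose call ended without either P0 library (0.0966 and 0.270) or library 2 of P5 (0.0622). Markers of other cells moved beside these: 2 of 2 genes of the pyramidal list fell (Neurod6 at -2.52 and Bcl11b), 2 of 3 of the neuroblast list and 3 of 4 of the blood list fell, and 4 of 11 genes of the dissociation response list rose. Their part in the gene changes above was not tested.

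From P0 to P5 Cxcl12 and Ndnf went on rising, while 8 of 15 immature-neuron genes, Tuba1a among them, fell and 3 rose. Of 7154 genes, 264 rose (3.69%) and 203 fell (2.84%), 6.53% in all, with a median log2 fold change of 0.02. Leaving out 1 of the 4 libraries of these ages or that of E16.5 gave 201 to 420 called genes; without library 1 of P0 there were 201 and without library 2 of P0 235, and without library 2 of P5 240. DESeq2 called 98. Of 64 called genes followed, 30 stayed called on leaving out each library and 20 in every alternative that gave a value.

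Cxcl12 reached 1855 and 1934 CPM in the P5 libraries (0.87 ± 0.09, edgeR adjusted p = 1.53e-17) and Ndnf 1178 and 1246 CPM (0.68 ± 0.11, edgeR adjusted p = 4.50e-08). Ramp1 rose from 204 and 277 CPM to 909 and 936 CPM (1.95 ± 0.14, edgeR adjusted p = 8.79e-39). In each of these genes both P5 libraries were above both P0 libraries. Reln was at 3219 and 3393 CPM at P5, a difference of 0.18 ± 0.07 that was not called (edgeR adjusted p = 0.0817), and Trp73 at 213 and 211 CPM (0.15, edgeR adjusted p = 0.735). The 2 LIM-homeodomain factors moved in opposite directions. Lhx1 rose to 309 and 222 CPM (0.70 ± 0.18, edgeR adjusted p = 0.00307), and Lhx5 fell to 264 and 289 CPM (-0.47 ± 0.16, edgeR adjusted p = 0.0469). Both calls rested on single libraries: that of Lhx1 ended without library 1 of P0 (edgeR adjusted p = 0.113) and library 1 of P5 (0.289), and that of Lhx5 without library 2 of P0 (0.554), library 1 or 2 of P5 (0.183 and 0.0926) or E16.5 (0.0534). Those of Cxcl12, Ndnf and Ramp1 held whichever library was left out.

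Among neuropeptides and calcium-binding proteins, Penk rose to 168 and 216 CPM (1.41) and Cck, the cholecystokinin precursor, from 62.5 and 85.2 CPM to 128 and 224 CPM (1.27). Calb2 rose to 829 and 970 CPM (0.45). Of 16 presynaptic genes 5 rose and none fell (median 0.46): Cplx2 (1.0), Syn2 (0.92), Syp (0.81), Syt1 (0.70) and Snap25 (0.52). The AMPA receptor subunits Gria1 (0.66) and Gria2 (0.65) rose too, 2 of 8 glutamate receptor genes tested. Syn2 and Penk stayed called whichever library was left out. Without library 1 of P0 the calls of Calb2, Syp, Snap25, Gria1 and Gria2 ended (edgeR adjusted p = 0.113 to 0.511), without library 2 of P0 those of Calb2, Syp, Snap25, Syt1 and Cplx2 (0.0624 to 0.181), without library 2 of P5 those of Calb2, Cck, Syp, Snap25, Cplx2, Gria1 and Gria2 (0.0511 to 0.485), without library 1 of P5 that of Gria1 (0.154) and without E16.5 that of Syp (0.0539). Of 15 immature-neuron genes, 8 fell and 3 rose (median -0.35). The tubulin gene Tuba1a fell from 8294 and 6632 CPM to 3346 and 3162 CPM (-1.18 ± 0.05, edgeR adjusted p = 8.75e-104), and Tubb2b, Tubb3, Gap43, Stmn1, Marcksl1, Dpysl3 and Mllt11 fell with it. The 3 that rose were Marcks, Sox4 and Sox11, and Sox11 stood at 296 CPM in library 1 of P5 and 612 CPM in library 2, without which it was not called (edgeR adjusted p = 0.567). The calls of Marcks and Gap43 ended without library 1 of P0 (0.272 and 0.0893).

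Of 12 cell-death genes 1 rose and 2 fell (median -0.17). Diablo rose from 717 and 727 CPM to 956 and 1024 CPM (0.47, edgeR adjusted p = 0.00124). Bax, an effector of mitochondrial apoptosis, fell from 390 and 336 CPM to 284 and 220 CPM (-0.51, edgeR adjusted p = 0.0216). Cycs, cytochrome c, fell as well (-0.72). With every cell thinned to 1000 UMIs the value for Bax was 0.05 and was not called. The Diablo call ended without library 1 or 2 of P0 (edgeR adjusted p = 0.0767 and 0.0848), and that of Bax without library 1 or 2 of P0 or library 2 of P5 (0.0509 to 0.410). In the reelin pathway list 1 of 17 rose, Dab1 from 16.8 and 11.8 CPM to 35.8 and 71.1 CPM, which was not called without library 2 of P5 (edgeR adjusted p = 0.231), and 1 fell, Pafah1b3, a subunit of a complex with Pafah1b1 (Lis1), which was not called without library 1 of P0 or library 2 of P5 (0.258 and 0.138; list median 0.01).

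Signs of other cells also moved between P0 and P5. The largest named rises, Hba-a1 at 8.13 and Hbb-bs at 5.51, are haemoglobin genes, and 1675 of 1802 haemoglobin UMIs at P5 (93.0%) were in 1 Cajal-Retzius cell; without it the summed haemoglobin level was 141 CPM in place of 1979 CPM. Apoe, abundant in glia, rose from 12 and 14.2 CPM to 143 and 114 CPM (3.28), Slc1a3, a glial glutamate transporter, rose by 1.87 (not called without library 2 of P0 or of P5, edgeR adjusted p = 0.207 and 0.601), and Prox1, a granule neuron factor, from 12 and 9.47 CPM to 71.7 and 108 CPM (3.05). The 5 Olig1 values were 0 at E16.5 and in both P0 libraries and 82.9 and 32.3 CPM at P5. The summed radial glia and astrocyte list was at 35.8 CPM at P0 and 207 CPM at P5 in Cajal-Retzius cells. In other neuronal clusters this list was at 26.3 to 344 CPM at P0 and 179 to 567 CPM at P5. Apoe was at 12.9 to 65.2 CPM at P0 and 110 to 227 CPM at P5 in those clusters, so its rise was not particular to Cajal-Retzius cells. The part of these RNAs in the other changes was not tested. The other named rises were Neurod1, Cd274, Klf9, Fabp7, Mt3, Purb, Ccdc136 and Zfos1 (1.44 to 2.02), and beside Tuba1a the named falls were Actb, Cenpw, Npm3, Mplkip, Panx1, Leprot, BC023719, Sin3b, Polr3k and Med25 (-1.47 to -1.06). Of these, Cd274, Fabp7 and Cenpw were not called without library 1 of P5 (edgeR adjusted p = 0.0535 to 0.0703), and Npm3, Mplkip, Panx1, Leprot, BC023719, Polr3k and Med25 not without library 2 of P5 (0.0519 to 0.372). Mplkip, Panx1, BC023719 and Polr3k were also not called without library 1 of P0 (edgeR adjusted p = 0.126 to 0.375), nor Npm3, Leprot, BC023719 and Med25 without library 2 of P0 (0.0595 to 0.211), nor Mplkip and BC023719 without library 1 of P5 (0.0937 and 0.171). Xist was at 0 in both P5 libraries.

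**Figure D3:**
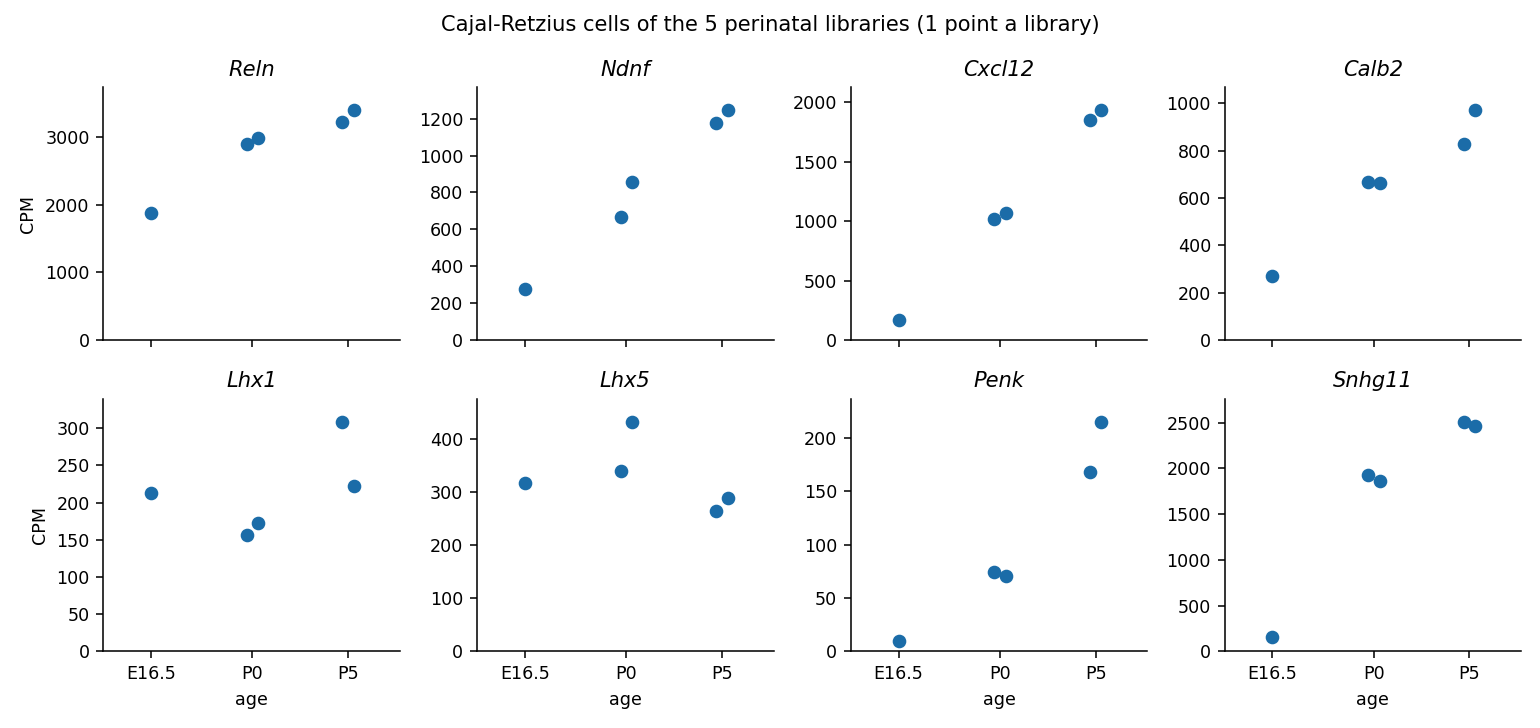
Level (CPM) of Reln, Ndnf, Cxcl12, Calb2, Lhx1, Lhx5, Penk and Snhg11 in the Cajal-Retzius cells of each library, 1 at E16.5 and 2 each at P0 and P5. Ndnf, Cxcl12 and Penk are higher in every P0 library than at E16.5 and higher again in every P5 library, while Lhx1 and Lhx5 differ in direction between P0 and P5.

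The comparison of P18, P19 and P23 with E16.5, P0 and P5, with 1 sum of cells per age, asked how the cells that remained at juvenile ages differed from perinatal ones. Transcripts of immature neurons fell together, and the markers of the lineage other than Lhx5 were not called. Of 5876 genes tested, 167 were higher (2.84%) and 177 lower (3.01%), 5.85% in all, by edgeR's quasi-likelihood test; the median over all genes was -0.11. The count rested on single ages: it was 34 without P19, 81 without P18, 99 without P0 and 230 without P23, 376 without E16.5 and 410 without P5. The 2 groups also differed in depth, and with every cell thinned to 1000 UMIs 162 genes were called.

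Tubb2b, a beta-tubulin of migrating and growing neurons, was at 2396, 3495 and 2463 CPM at E16.5, P0 and P5 and at 386, 334 and 796 CPM at P18, P19 and P23 (-2.60 ± 0.33, edgeR adjusted p = 0.00151). Marcksl1, a membrane-actin linker, was at 2507, 1908 and 1253 CPM and then at 238, 306 and 512 CPM (-2.54 ± 0.34, edgeR adjusted p = 0.00151). Dpysl3, a growth-cone protein, was at 563, 659 and 411 CPM and then at 148, 57.3 and 109 CPM (-2.70 ± 0.36). In each of these genes every juvenile value lay below every perinatal one. Of 15 immature-neuron genes 11 fell and none rose, with a median of -1.55: beside these they were Nrep (-2.38), Sox11 (-1.99), Mllt11 (-1.89), Tubb3 (-1.76), Stmn2 (-1.55), Basp1 (-1.51), Tuba1a (-1.43) and Gap43 (-1.38). Dcx, doublecortin, was at -1.23 and was not called (edgeR adjusted p = 0.249). Tubb2b, Marcksl1, Dpysl3, Mllt11 and Basp1 were among the 11 of 49 called genes followed through the alternatives that stayed called in each that gave a value. The calls of the other 6 ended without P19 (edgeR adjusted p = 0.0541 to 0.224), those of Sox11, Tubb3, Stmn2 and Tuba1a also without P18 (0.0574 to 0.181), those of Tubb3 and Tuba1a without P0 (0.0568 and 0.112) and that of Sox11 without E16.5 (0.0808).

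The lineage markers were compared in the same fit. Reln was at -0.64 ± 0.29 (edgeR adjusted p = 0.210), Trp73 at 0.30 (adjusted p = 0.524 by edgeR), Lhx1 at 0.51 (0.330) and Ndnf at 0.96 (0.162), none of them called. Lhx5 fell, from 317, 387 and 277 CPM to 148, 153 and 98.1 CPM (-1.49 ± 0.30, edgeR adjusted p = 0.0121). The Lhx5 call was lost without P0, without P18, without P19 and with thinned cells, at edgeR adjusted p = 0.0575 to 0.0614. Ramp1 was at 1811, 1510 and 2017 CPM at P18 to P23 (1.96, edgeR adjusted p = 0.0791), and Cxcl12, which overlapped between the groups, at 475, 545 and 709 CPM (-0.98, edgeR adjusted p = 0.343). Of 16 transcription factors 4 fell and none rose (median -0.52), the other 3 being Nhlh2 (-1.19), Emx2 (-1.17) and Zic4 (-3.56), which was at 0, 0 and 10.9 CPM at P18, P19 and P23. The calls of these 3 ended without P18 or P19 (edgeR adjusted p = 0.0741 to 0.227), those of Nhlh2 and Emx2 also without P0 (0.110 and 0.0960) and that of Zic4 without P23 (0.0612) and by DESeq2 (adjusted p = 0.0988). That of Emx2 ended with thinned cells (edgeR adjusted p = 0.144). Of 17 reelin pathway genes none was called (median -0.32), and of 16 presynaptic genes none (median 0.05).

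Among genes of transmission, Slc17a7 rose from 2.65, 2.39 and 15.4 CPM to 89.1, 86.0 and 76.3 CPM (3.34 ± 0.67, edgeR adjusted p = 0.0109), at 3 UMIs at P18. A Slc17a7 UMI was in 1.75, 1.47, 7.28, 13.6, 14.6 and 19.2% of Cajal-Retzius cells from E16.5 to P23 and in 9.54, 11.6, 31.1, 65.0, 74.2 and 79.2% of other neuronal cells, a share that rose over the same ages; the part of their RNA in the Slc17a7 rise was not tested. Slc17a6 was at 0.70 and was not called. The GABA-A receptor subunit gene Gabra2 fell from 172, 230 and 305 CPM to 89.1, 47.8 and 131 CPM (-1.59), 1 of 5 such genes. None of 6 glutamate receptor genes, 9 voltage-gated channel genes and 4 chloride transport genes was called. Of 11 cell-death genes 1 fell, the anti-apoptotic Bcl2l1, which was at 65.0, 72.8 and 50.5 CPM and then at 29.7, 9.55 and 0 CPM, which is 1, 1 and 0 UMIs (-2.96, edgeR adjusted p = 0.0338; DESeq2 adjusted p = 0.0775). Diablo was at 0.11 and was not called. Of 12 chemokine and guidance genes Nrp1 alone was called, at -2.94, and of 7 calcium-binding and neuropeptide genes Nxph4, a neurexophilin, rose (1.24) and Nnat fell (-2.85). Slc17a7, Gabra2, Bcl2l1, Nrp1, Nxph4 and Nnat were not called without P18 or without P19 (edgeR adjusted p = 0.0647 to 0.318), Slc17a7, Bcl2l1, Nrp1 and Nxph4 not without P23 (0.0513 to 0.195), and Gabra2 and Nxph4 not without P0 (0.0850 and 0.111). Nnat was not called by DESeq2 (adjusted p = 0.0595).

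Beyond the lists, Pkib, an inhibitor of protein kinase A, rose from 19.9, 54.9 and 84.6 CPM to 416, 526 and 425 CPM (2.94 ± 0.40, edgeR adjusted p = 0.00151). Nptx1, a secreted synaptic pentraxin, rose from 3.98, 4.77 and 14.3 CPM to 119, 277 and 98.1 CPM (4.27 ± 0.55). It was higher in other neurons of P18, P19 and P23, at 439, 549 and 329 CPM in GC-juv and 746, 1053 and 357 CPM in CA3-Pyr. Anxa5, a phospholipid-binding annexin, rose from 3.98, 4.77 and 11 CPM to 148, 191 and 65.4 CPM (4.10 ± 0.55). Scn2b, a sodium channel subunit (3.15; 119, 287 and 120 CPM at P18, P19 and P23, against 294, 820 and 308 CPM in the highest other neuronal cluster), Zscan26 (2.92), Socs3, a suppressor of cytokine signalling (2.87), and Tcp11l2 (2.85) were also among the named rises. Serf1 fell from 1020, 802 and 625 CPM to 148, 172 and 98.1 CPM (-2.72 ± 0.33, edgeR adjusted p = 0.00151). The small GTPase gene Rac3 fell from 431, 568 and 369 CPM to 148, 38.2 and 65.4 CPM (-2.91 ± 0.39), Ctxn1 from 671, 811 and 510 CPM to 89.1, 28.7 and 174 CPM (-2.94 ± 0.43), and Socs2 from 245, 247 and 145 CPM to 0, 9.55 and 32.7 CPM (-3.76 ± 0.56). The other named falls were Draxin, an axon guidance factor (-3.78), Mpzl1 (-3.30), Mex3a (-2.91), Dpysl5 (-2.77) and Lingo1 (-2.65), each at few juvenile UMIs. At P18, P19 and P23 Draxin had 1, 1 and 0 UMIs, Mpzl1 0, 1 and 2, and Mex3a 0, 0 and 3. Dpysl5 had 0, 1 and 4 UMIs and Lingo1 0, 3 and 1. The part of RNA from other neurons in the Nptx1 and Scn2b values was not tested. Pkib, Serf1, Rac3, Ctxn1 and Socs2 were called whichever age was left out. The other genes of this group were not called without P19 (edgeR adjusted p = 0.0531 to 0.198), Mex3a, Dpysl5 and Lingo1 not without P18 (0.0547 to 0.122), Socs3 and Lingo1 not without P23 (0.102 and 0.0833), and Zscan26 not without P0 (0.0506).

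The remaining named rises belong to glial lists or are glial genes. Both of the 2 oligodendrocyte genes tested rose, among them the myelin gene Mbp (4.66), as did 2 of 3 radial glia and astrocyte genes (Aldoc at 3.45 and Slc1a3 at 2.37), and Agt (3.66) and S100b (3.35). The Mbp and Slc1a3 calls ended without P23 (edgeR adjusted p = 0.148 and 0.426), those of Slc1a3, Aldoc and S100b without P18 (0.105 to 0.166), those of Aldoc, Agt and S100b without P19 (0.0523 to 0.0776), those of Slc1a3, Agt and S100b without P0 (0.0528 to 0.139) and that of S100b without P23 (0.106). The summed oligodendrocyte list was at 10.6, 13.1 and 19.8 CPM in Cajal-Retzius cells at E16.5, P0 and P5 and at 297, 143 and 687 CPM at P18, P19 and P23. In other neuronal clusters it was at 7.78 to 47.0 CPM at the younger ages and 183 to 548 CPM at the older ones. The summed radial glia and astrocyte list was at 51.7, 35.8 and 207 CPM and then at 1218, 182 and 654 CPM in Cajal-Retzius cells, against 23.4 to 567 CPM and 130 to 780 CPM in other neuronal clusters. At P23 the 42 Mbp UMIs included 14 in 1 cell. Of 11 genes of the dissociation response 6 rose and none fell (median 1.31), among them Jun from 76.9, 157 and 232 CPM to 832, 1347 and 589 CPM (2.42). The others were Btg2, Junb, Dusp1, Jund and Ier2, and without P19 none of the 6 was called (edgeR adjusted p = 0.0590 to 0.227). The part of glial RNA and of the dissociation response in the other differences was not tested.

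**Figure D4:**
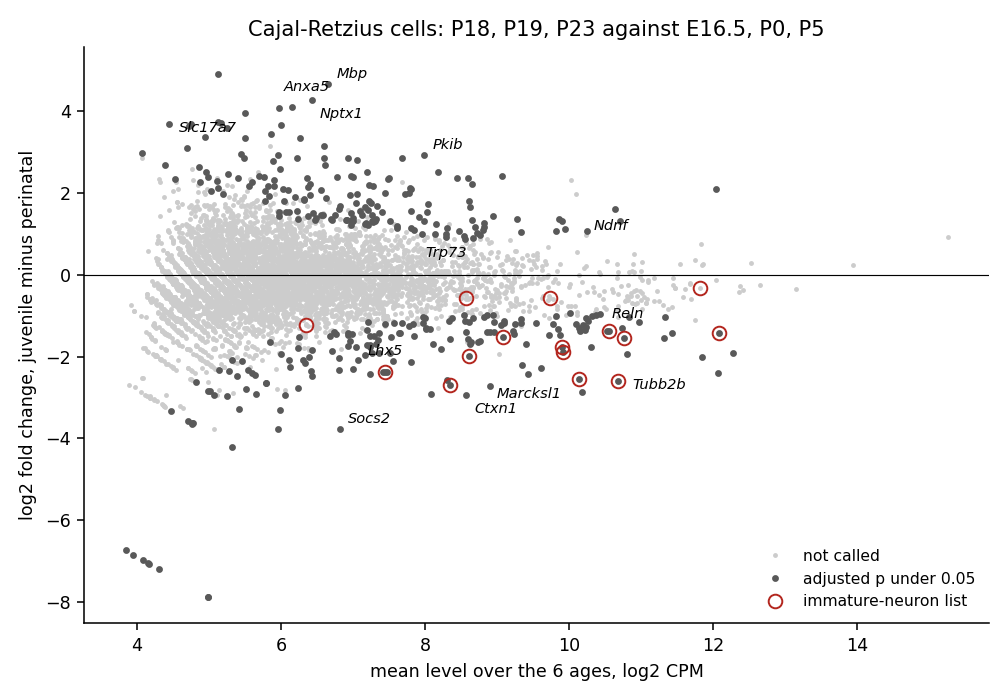
Log2 fold change of P18, P19 and P23 over E16.5, P0 and P5 against the mean log2 CPM for the 5876 genes tested in Cajal-Retzius cells. Dark points are the 344 called genes and red rings the 15 immature-neuron genes, of which 11 are called and lie below 0.

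The same stage difference was set against that of the Immature-GC cluster of the same ages, with age as a block. That cluster holds the cells classed as immature granule neurons at each age, 37 to 1271 cells. Granule neurons classed as juvenile or adult are in the GC-juv and GC-adult clusters, which were not part of this fit, so the comparison does not show how granule neurons changed with age. Of 9004 genes, 33 changed more upward in Cajal-Retzius cells (0.367%) and 114 more downward (1.27%), 1.63% in all, and the median interaction over all genes was -0.20. With DESeq2's median-ratio scaling in edgeR the split was 43 and 82 genes. Without the age block 3 genes were called. Leaving out an age gave 35 genes (P18), 39 (P0), 62 (P19), 93 (E16.5) or up to 229 (P5). Of 41 called genes followed, 17 stayed called on leaving out each age and 2 in every alternative that gave a value.

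Of 15 immature-neuron genes 8 were called downward in Cajal-Retzius cells relative to Immature-GC and none upward (median -1.02). Immature-GC is a class of immature cells at every age, so its level of these genes goes with how it was drawn, and the count is a description that bears on no difference in maturation. Tubb2b, for which Cajal-Retzius values are given above, was at 2297, 3968 and 2901 CPM in Immature-GC at E16.5, P0 and P5 and at 1351, 1565 and 1867 CPM at P18, P19 and P23, an interaction of -1.84 ± 0.29 on the log2 scale (edgeR adjusted p = 5.73e-07). Mllt11 in Immature-GC was at 2019, 1930 and 1702 CPM and then at 1909, 1353 and 1556 CPM (-1.70 ± 0.29). The others were Dpysl3 (-1.79), Nrep (-1.76), Marcksl1 (-1.67), Basp1 (-1.49), Gap43 (-1.37) and Marcks (-1.02). Gap43 kept a higher level in Cajal-Retzius cells at every age, 829 CPM or more, where Immature-GC had 283 CPM or less. Tubb2b, Mllt11, Marcksl1 and Basp1 were called whichever age was left out. Dpysl3 was not without P19 (edgeR adjusted p = 0.0531), Gap43 not without P0 or P18 (0.237 and 0.0681), and Nrep and Marcks not without E16.5, P0, P18 or P19 (0.0559 to 0.268).

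Of 18 chemokine and guidance genes 4 were called, all downward: Nrp1 (-2.43), Epha3 (-2.19), Cxcl12 (-2.18) and Robo2 (-1.51), with a list median of -1.18. Immature-GC had 10.1 to 32.1 CPM of Cxcl12 and 3.83 to 42.0 CPM of Robo2, so those interactions compare a high with a low level; with sums thinned to equal size they were 0.998 and 0.870, in the opposite direction. Nrp1 was at 343 CPM or more in Immature-GC at every age. Without P0 these calls ended (edgeR adjusted p = 0.0511 to 0.669), without P18 those of Nrp1, Epha3 and Robo2 (0.267 to 0.401), without P19 those of Nrp1 and Epha3 (0.138 and 0.125), without P23 that of Robo2 (0.308) and without E16.5 that of Nrp1 (0.185). Gabra2 (-1.95) and Nnat (-1.94) were called downward too, Nnat not without P18 or P19 (edgeR adjusted p = 0.116 and 0.0632). Gabra2 was called whichever age was left out. None of the 16 presynaptic and 17 reelin pathway genes was called.

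Upward, Pkib was at 19.6 to 45 CPM in Immature-GC at all 6 ages and rose in Cajal-Retzius cells (2.26 ± 0.41, edgeR adjusted p = 2.06e-05). Anxa5 was at or under 14.9 CPM in Immature-GC (2.93 ± 0.85, edgeR adjusted p = 0.0418), and Nptx1 at 5.27 to 66.3 CPM (2.50 ± 0.60, edgeR adjusted p = 0.00441), below the GC-juv and CA3-Pyr levels given above. Lmo2, a LIM-only transcriptional co-factor, was at 37.1, 48.9 and 56.0 CPM and then at 208, 172 and 153 CPM in Cajal-Retzius cells, while Immature-GC went from 43.1, 19.2 and 24.6 CPM to 8.51, 6.43 and 6.53 CPM (3.30 ± 0.59). Pkib and Lmo2 were called whichever age was left out, Lmo2 not with thinned cells (edgeR adjusted p = 0.151). The Anxa5 call ended on leaving out each of the 6 ages (edgeR adjusted p = 0.0511 to 0.362), and that of Nptx1 on leaving out P0, P5, P18 or P19 (0.0643 to 0.468). None of 4 oligodendrocyte and 5 astrocyte genes was called here, and Mbp was at 1.25 (edgeR adjusted p = 0.249). Of 12 dissociation response genes 3 were called downward, Egr1 (-2.96), Junb (-1.97) and Fos (-1.38): Junb was at 1030, 1459 and 1168 CPM in Immature-GC at P18, P19 and P23 and at 475, 296 and 338 CPM in Cajal-Retzius cells. The Fos call ended without P0, P18 or P19 (edgeR adjusted p = 0.0561 to 0.362).

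**Figure D5:**
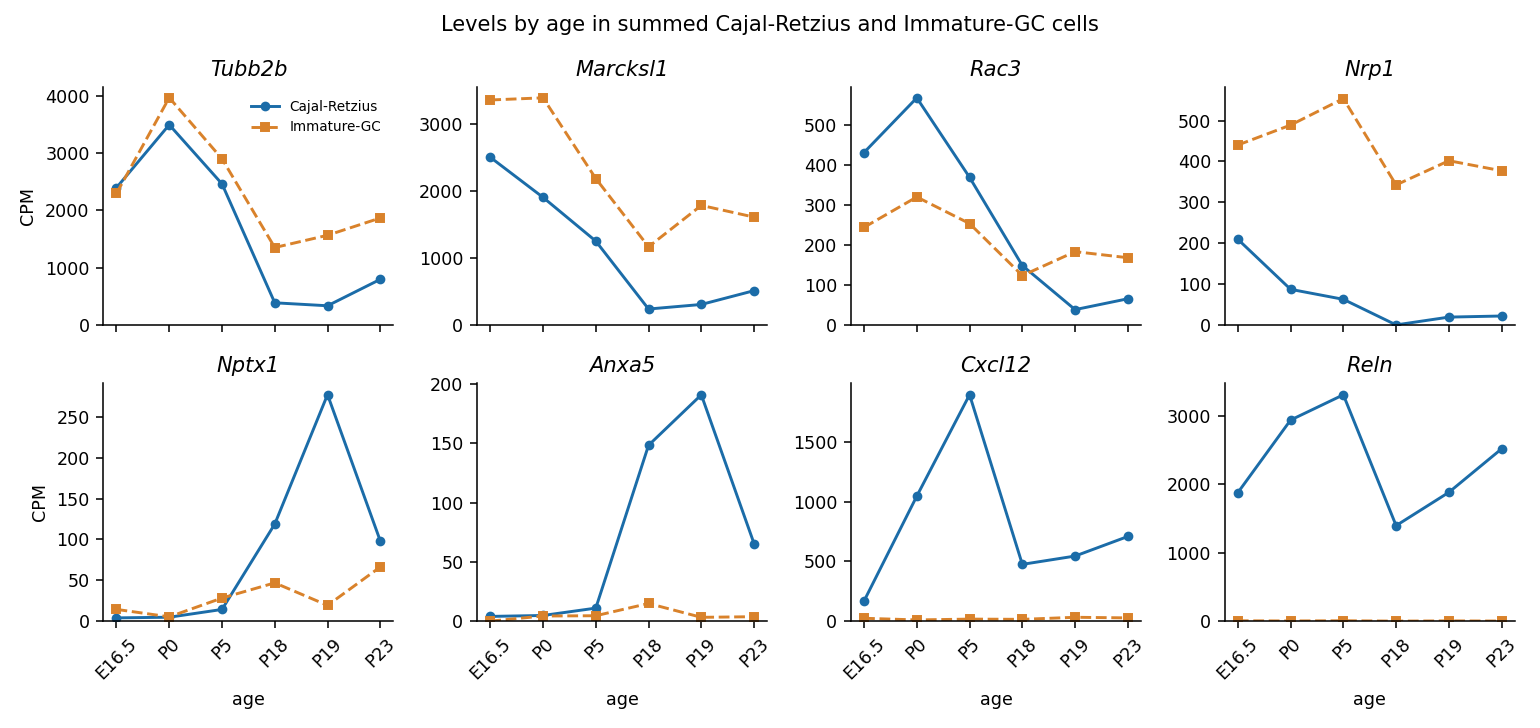
Level (CPM) by age, E16.5 to P23, of Tubb2b, Marcksl1, Rac3, Nrp1, Nptx1, Anxa5, Cxcl12 and Reln in Cajal-Retzius cells and in the Immature-GC cluster. At P18 to P23 Tubb2b and Marcksl1 were at 796 and 512 CPM or less in Cajal-Retzius cells and at or above 1351 and 1168 CPM in Immature-GC.

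Within the first postnatal days the change of Cajal-Retzius cells was set against that of the Immature-Pyr cluster of the same 4 libraries, with the library as a block. Of 10888 genes, 477 changed more upward in Cajal-Retzius cells (4.38%) and 472 more downward (4.34%), 8.72% in all (median -0.03). DESeq2 called 268, and leaving out each of the 4 libraries in turn gave 360 to 402. Immature-Pyr, too, holds cells classed as immature. Of 16 presynaptic genes 9 were called downward in Cajal-Retzius cells relative to Immature-Pyr and none upward (median -0.77). Snap25 was at 241 and 253 CPM at P0 and 300 and 399 CPM at P5 in Cajal-Retzius cells, and at 262 and 227 CPM and then at 577 and 590 CPM in Immature-Pyr (-0.72 ± 0.16, edgeR adjusted p = 0.000170). Vamp2 was at 289 and 301 CPM and then at 181 and 231 CPM in Cajal-Retzius cells, and at 276 and 258 CPM and then at 400 and 361 CPM in Immature-Pyr (-0.99). Cplx1 was at 50.5 and 73.4 CPM and then at 62.7 and 60.4 CPM in Cajal-Retzius cells, and at 90.6 and 87.3 CPM and then at 177 and 167 CPM in Immature-Pyr (-0.93). Syn1 (-1.06) and Syp (-1.09) were called downward too. Of the 9, Vamp2 alone stayed called whichever library was left out; without library 2 of P0, for example, Snap25 was at an edgeR adjusted p = 0.134, Syp at 0.450 and Cplx1 at 0.525, and without library 1 of P0 Syn1 was at 0.176. Snhg11 was already at 1932 and 1860 CPM in Cajal-Retzius cells at P0, and rose in Immature-Pyr from 114 and 92.9 CPM to 680 and 553 CPM (-2.14 ± 0.09).

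Of 15 immature-neuron genes 6 were called upward and 4 downward (median 0.28). Tuba1a fell from 15363 and 14439 CPM to 3466 and 3347 CPM in Immature-Pyr, a larger fall than in Cajal-Retzius cells (0.98 ± 0.07, edgeR adjusted p = 3.19e-45). Sox11 fell from 1554 and 1726 CPM to 781 and 841 CPM in Immature-Pyr (1.89 ± 0.13). In the guidance and reelin genes, Robo2 rose in Immature-Pyr from 23 and 23.6 CPM to 81.8 and 94.4 CPM (-1.57), while Dab1 was at 129 and 130 CPM and then at 95.5 and 89.2 CPM there and changed more upward in Cajal-Retzius cells (2.43 ± 0.42), a call that ended without library 2 of P5 (edgeR adjusted p = 0.0975). Neither Cxcl12 (-0.26, edgeR adjusted p = 0.650) nor Reln (-0.22, edgeR adjusted p = 0.688) was called. Diablo, at 44.4 to 53.5 CPM in Immature-Pyr, was called upward at 0.66, not without library 1 or 2 of P0 or library 2 of P5 (edgeR adjusted p = 0.0657 to 0.0785). The haemoglobin genes Hba-a1 (8.32) and Hbb-bs (5.57), which rest on the 1 cell described above, lead the upward genes.

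At the adult ages the values are descriptions, since P120 held 3 cells and both adult samples differ from the others in sorting and genotype. The 35 cells of P132 had Ndnf at 1228 CPM, Ramp1 at 1667 CPM, Cxcl12 at 1632 CPM, Calb2 at 421 CPM and Snhg11 at 965 CPM. Tubb2b was at 298 CPM, Marcksl1 at 228 CPM and Mllt11 at 87.7 CPM, at or below their values at P18, P19 and P23. Other immature-neuron genes were not all so: Basp1 was at 386 CPM, above its 297, 315 and 305 CPM at those ages. Dpysl3 was at 87.7 CPM, against 148, 57.3 and 109 CPM. The summed oligodendrocyte list was at 1421 CPM and the radial glia and astrocyte list at 737 CPM in these cells. The 3 cells of P120 each had a Reln UMI and at least 3 of the 5 markers.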

How the data were processed

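UMI counts of 27933 genes in 24185 cells of 11 libraries were used, with the cluster, age, strain and sex of each cell from the deposited metadata table. The authors made these count values with the tools that the submitters' processing notes name, Cell Ranger and mm10; the counting settings are not given in the sources used here. No column of per-sample values was unused (0), and 31 empty metadata lines were dropped. Cells were taken as the authors kept them and no doublet caller was run; an alternative left out cells of more than 3 times the median UMIs of their cluster and age.

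Raw counts of the cells were summed per age or per library and tested with edgeR 4.0.16 (quasi-likelihood F test, TMM, filterByExpr, limma 3.58.1, R 4.3.3), using ages with at least 20 cells of the cluster and calling genes at a Benjamini-Hochberg adjusted p under 0.05 over all genes tested. P0, P5 and E16.5 libraries entered 1 fit. The juvenile comparison used 1 sum per age, and the interaction tests had the age or library as a block, since the clusters compared come from the same animals; deviations from group means correlated across 3315 genes at r = 0.191 to 0.564 between Cajal-Retzius and Immature-GC sums of 1 age, and across 3236 genes at 0.0193 to 0.171 between Cajal-Retzius and Immature-Pyr sums of 1 library. Other clusters were compared only as a description. Shares carry exact 95% binomial intervals (scipy 1.17.1, Python 3.11.15, numpy 2.4.6, pandas 2.3.3, matplotlib 3.10.9). Errors of log2 fold changes are standard errors. The scripts were tested on simulated data.

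Of the called genes with at least 50 CPM on average in the Cajal-Retzius sums, the 12 of largest change in each direction were named, outside the interaction tests only where the groups did not overlap; for the description, the 20 highest and 10 lowest by the smallest ratio over ages of CPM + 5 to the nearest other neuronal cluster. Genes of the lists could be named too, and a few genes that the rule or the lists would name are not reported here. The cluster, its markers and the lists were chosen with earlier results of these data known. Alternatives were DESeq2 1.42.0, its size-factor scaling in edgeR, no filter on low counts, cells thinned to 1000 UMIs, and leaving out each age or library. Others were no block, other minimum cell numbers, which changed no sum, and, chosen after seeing the data, sums thinned to equal totals.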

Additional observations from a re-analysis of the deposited data

Results flagged for a closer look

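Whether the change of Cajal-Retzius cells with age differed from that of another neuronal cluster was tested by an interaction term. Of the genes that passed, those named by the rule given above are listed with their log2 values, and a few are not reported here. Against Immature-GC, juvenile minus perinatal, 147 genes differed. Of the named genes, those that changed more upward in Cajal-Retzius cells were Rgma (4.79), Lmo2 (3.30), Anxa5 (2.93), Nptx1 (2.50), Fabp7 (2.38), Utrn (2.29), Pkib (2.26), Yipf1 (2.21), Mt1 (1.81), Gas6 (1.80), Mt3 (1.64) and Cdc123 (1.63). Those that changed more downward were Mpzl1 (-2.96), Ifngr2 (-2.84), Sqle (-2.72), Npnt (-2.69), Nrp1 (-2.43), Serf1 (-2.35), Fndc4 (-2.31), Ctxn1 (-2.25), Nhp2 (-2.24), Rac3 (-2.22) and Fscn1 (-2.22). Of 41 called genes followed in this comparison, 17 stayed called on leaving out each age and 2 in every alternative that gave a value. Immature-GC holds cells classed as immature at every age, so these values do not show how granule neurons changed. Rgma had 0 UMIs in Immature-GC at P18 and P19 and was not called with cells thinned to 1000 UMIs (edgeR adjusted p = 0.224). Fabp7, a fatty acid-binding protein of radial glia, had 33 of its 36 UMIs at P23 in 1 cell and was not called without P23 (edgeR adjusted p = 0.957).

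Against Immature-Pyr, P5 minus P0, 949 genes differed. Of 68 called genes followed, 30 stayed called on leaving out each library and 18 in every alternative that gave a value. More upward in Cajal-Retzius cells were Hba-a1 (8.32), Hbb-bs (5.57), Cdkn1c (2.55), Tshz2 (2.50), Nxph4 (2.47), Clic1 (2.38), Sox4 (2.24), Mfng (2.14), Neurod1 (2.07), Sfrp1 (1.95), Igfbpl1 (1.94) and Sox11 (1.89). More downward were Car10 (-3.36), Smoc2 (-2.49), Fibcd1 (-2.35), Snhg11 (-2.14), Plcxd2 (-1.97), Prkcb (-1.78), Sprn (-1.78), Rbms3 (-1.77), Fkbp9 (-1.74), Gm28050 (-1.72), Chchd10 (-1.69) and Tcta (-1.69). The haemoglobin values rest on the 1 cell described with the P0 and P5 libraries. A value also takes in the change of Immature-Pyr. Cdkn1c went from 115 and 104 CPM to 98.6 and 75.4 CPM in Cajal-Retzius cells. In Immature-Pyr it went from 51.8 and 55.0 CPM to 8.37 and 6.39 CPM. Igfbpl1 went from 221 and 211 CPM to 143 and 220 CPM in Cajal-Retzius cells. At P5 Nxph4 had 3 and 0 UMIs in Immature-Pyr and Mfng 5 and 3.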

How the results depend on the processing

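The differences of the shares kept their sign in every alternative: -2.86 to -1.77 percentage points of all cells and -3.72 to -2.33 of neuronal cells on leaving out each age, and -2.82 and -3.63 with cells of at least 2000 UMIs.

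The counts of called genes depended on the processing. In the juvenile comparison (344) no filter on low counts gave 634, cells thinned to 1000 UMIs 162 and sums thinned to equal totals, chosen after seeing the data, 107; leaving out each age gave 34 to 410, while size-factor scaling gave 342, DESeq2 325 and leaving out cells of very many UMIs 375. From P0 to P5 (467) no filter gave 242, DESeq2 98, thinned cells 82 and leaving out each library 201 to 420. From E16.5 to P0 (752) the same alternatives gave 481, 141 and 115, and leaving out each library but that of E16.5, which cannot be left out, 456 to 799. Against Immature-GC (147) DESeq2 gave 83, thinned cells 94, equal sums 14 and leaving out each age 35 to 229. Against Immature-Pyr (949) DESeq2 gave 268, thinned cells 176 and leaving out each library 360 to 402. Thinning and leaving out libraries leave fewer counts or samples; for the other settings the cause was not tested.

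Dropping the replicate block left 3 genes against Immature-GC and 889 against Immature-Pyr.

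Of 3014 values of followed genes under an alternative, 2382 kept direction and side of the threshold, 626 kept direction only, 2 passed the threshold newly and 4 reversed. Those that kept both include 53 values each at minimums of 10 and 5 cells per age in the juvenile comparison. Every age there held more cells, so these are the main values again and test nothing. The reversed values were Bax from P0 to P5 with thinned cells (0.0464), Cxcl12 and Robo2 against Immature-GC with equal sums (0.998 and 0.870), and Hba-a2 against Immature-Pyr, which leaving out each library took from -5.0 (without library 1 of P5) to 6.37 (without library 2 of P0). DESeq2 gave no adjusted p for 19 to 43 followed genes of each of 4 comparisons. At P18 the sum held 33674 UMIs, so a gene of 3 UMIs stood at 89.1 CPM, and genes below that level could not be followed there.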

Other observations

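Cenpf, which encodes a kinetochore protein of dividing cells, had a UMI in 52.6, 56.6 and 56.3% of Cajal-Retzius cells at E16.5, P0 and P5 and in 31.8, 29.2 and 42.3% at P18, P19 and P23. Among other neuronal cells of those ages the share was 3.43, 2.41, 3.14, 2.32, 2.84 and 1.5%. Among single clusters CA3-Pyr reached 55.3 CPM at P18, 36.3 CPM at P19 and 117 CPM at P132, where Cajal-Retzius cells were at 238, 134 and 193 CPM, 4.30, 3.68 and 1.65 times as high. With each cell thinned to 1000 UMIs the shares were 7.02, 15.4, 13.9, 13.6, 6.25 and 19.2% against 0.465, 0.314, 0.685, 0.697, 0.640 and 0.125%. Other genes of division did not go with it: Top2a stayed at or under 6.63 CPM in Cajal-Retzius cells, and Mki67 was at 3.98 to 59.4 CPM where detected. Cenpf was singled out after its values were seen.

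The median UMI count of Cajal-Retzius cells relative to other neuronal cells was 0.921, 1.14 and 0.990 at E16.5, P0 and P5 and 0.653, 0.720 and 0.546 at P18, P19 and P23.

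The P23 Cajal-Retzius cell of most UMIs held 9229, 3.03 times the median of its age. It had 12 UMIs of Reln, 1 of Trp73, 1 of Lhx1 and 3 of Ndnf. It also held 43 of the 46 Igfbpl1 UMIs of the P23 cluster, 40 of 56 of Nnat, 17 of 25 of Sox11, 11 of 13 of Neurod1 and 31 of 73 of Tubb2b, genes of newborn neurons, and 0 UMIs of Mki67 and Top2a. Without cells of very many UMIs the juvenile minus perinatal values were -3.86 for Nnat, -2.63 for Sox11 and -2.92 for Tubb2b.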
